A study of Mus musculus with 11 samples.

Results

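The Wnt ligands, their receptors and their secreted antagonists were examined in 3 regions of the mouse testis. The genes were chosen by name only: every gene called Wnt, Fzd, Sfrp or Dkk with a number, together with Frzb, Wif1, Lrp5, Lrp6, Axin2, Lef1, Nkd1 and Notum, if at least 1 probe set of the array carried that symbol alone. This gave 45 of the 18194 genes with a probe set of their own: 19 Wnt ligands, 10 Frizzled receptors, 2 Lrp co-receptors, 5 genes of the Sfrp family (Sfrp1, Sfrp2, Sfrp4, Sfrp5 and Frzb), 4 Dickkopf genes, Wif1 and Notum, and the 3 response genes Axin2, Lef1 and Nkd1. They have 88 probe sets, and each gene is given by the probe set with the highest mean log2 signal. Tcf7 was not analysed here.

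Wnts are secreted, lipid-modified proteins that bind Frizzled receptors at the cell surface. With Lrp5 or Lrp6 as co-receptor this binding halts the breakdown of beta-catenin, which then enters the nucleus and, with Tcf and Lef factors, raises target genes such as Axin2, while other Wnts act through Frizzled or Ror receptors without beta-catenin. Secreted frizzled-related proteins (Sfrp) and Wif1 bind the ligands themselves, Dickkopf proteins such as Dkk1 block the Lrp co-receptor, and Notum removes the lipid of the ligand. In the gonad Wnt4 is known for its part in ovary development, and in the testis Wnt5a and Wnt6 are known as signals that reach undifferentiated spermatogonia, while beta-catenin that cannot be broken down in Sertoli cells disturbs the tubules.

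RNA came from the rete testis (RT), the collecting network into which the tubules drain, from the Sertoli valve (SV), the terminal segment where each tubule meets the rete, and from convoluted seminiferous tubules (ST) of the distal testis. All 3 regions were cut from testes of W/Wv mice aged 7 weeks, which carry mutations of the receptor gene Kit and whose tubules hold few germ cells, so there was no wild-type group. Trypan blue had been injected through the efferent ducts to show the regions, and each array holds a pool of 20 testes, with 3 arrays for RT, 4 for SV and 4 for ST. The RT samples are numbered 1 to 3, the SV and ST samples 1 to 4, and arrays are listed in that order below. The study's methods say that SV pieces are likely to hold cells of the rete testis as well.

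Signals are MAS5.0 values on a linear scale without a unit, with a median of 87.1 over all values. Of 10 markers of rete testis epithelium, 10 were higher in RT than in ST and 7 in SV, and their signals summed to 19609–31635 per array in RT, to 3657–7778 in SV and to 853–1331 in ST. Of 11 markers of Sertoli cells, RT was below ST for 8, with sums of 34597–45803 in RT, against 62607–87239 in SV and 83072–105370 in ST. RT was also higher for 3 of 7 measured markers (11 listed) of efferent duct and epididymis epithelium, 3 of 8 of blood endothelium and 3 of 5 of lymphatic endothelium. Of 8 markers of fibroblasts and tunica stroma, 1 was called higher in RT, and 6 had higher values at an unadjusted p under 0.05. Their sums were 40892–50741 in RT against 22800–37453 in ST. Over all genes, 12.5% were called higher and 7.34% lower in RT than in ST, and 2.39% higher in SV than in ST. Arrays numbered 1 and 2 stood apart from arrays numbered 3 and 4 in every region, with an 18S signal of 20675–32135 against 6064–12751. In whole pieces of tissue, fewer cells of a type and less RNA per cell cannot be told apart. The arrays were compared by limma on log2 signal, and a gene was called at a Benjamini-Hochberg adjusted p under 0.05 and over 2-fold. Fold values are those of the log2 means.

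Of the 45 genes, 19 were called in at least 1 of the 3 comparisons and 26 in none. In RT against ST, 11 were higher (all genes: 12.5%) and 6 were lower (all genes: 7.34%). In SV against ST, 4 were higher (all genes: 2.39%) and none was lower by limma (all genes: 0.0769%), while 2, Fzd1 and Fzd7, had lower values at an unadjusted p under 0.05 and 1, Sfrp2, was called lower by the methods' t-test at an unadjusted p under 0.05 and over 2-fold. In SV against RT, 5 were higher (all genes: 4.39%) and 5 were lower (all genes: 6.41%). The arrays of RT and ST did not overlap for 24 of the 45 genes, against 43.0% of all genes, those of SV and ST for 11 (all genes: 10.8%) and those of SV and RT for 22 (all genes: 32.2%). The median log2 fold change of the 45 genes was 0.65 in RT against ST (all genes: 0.08), 0.31 in SV against ST (all genes: 0.02) and -0.22 in SV against RT (all genes: -0.04). The comparisons share arrays, so their values stand side by side and are not independent.

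Scaling moved these counts. RT arrays had higher medians than the others, and the median log2 difference of RT from ST over all probe sets was 0.13 as deposited, -0.07 after quantile normalization and -0.29 after centring each array on its median. The 11 higher and 6 lower genes of RT against ST became 7 and 7 after quantile normalization and 6 and 8 after centring. In SV against RT, where that median was -0.11, 0.03 and 0.20, the 5 higher and 5 lower genes became 7 and 4, then 7 and 3. SV against ST held 4 higher and none lower under both scalings. Quantile normalization lost the calls of Wnt9a, Fzd1, Fzd10, Sfrp1 and Axin2 in RT against ST and of Lrp5 in SV against RT. Median centring lost those of Wnt9a, Fzd6, Fzd10, Sfrp1 and Axin2 in RT against ST and of Fzd10 and Lrp5 in SV against RT. No called gene changed direction under either.

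**Figure D1:**
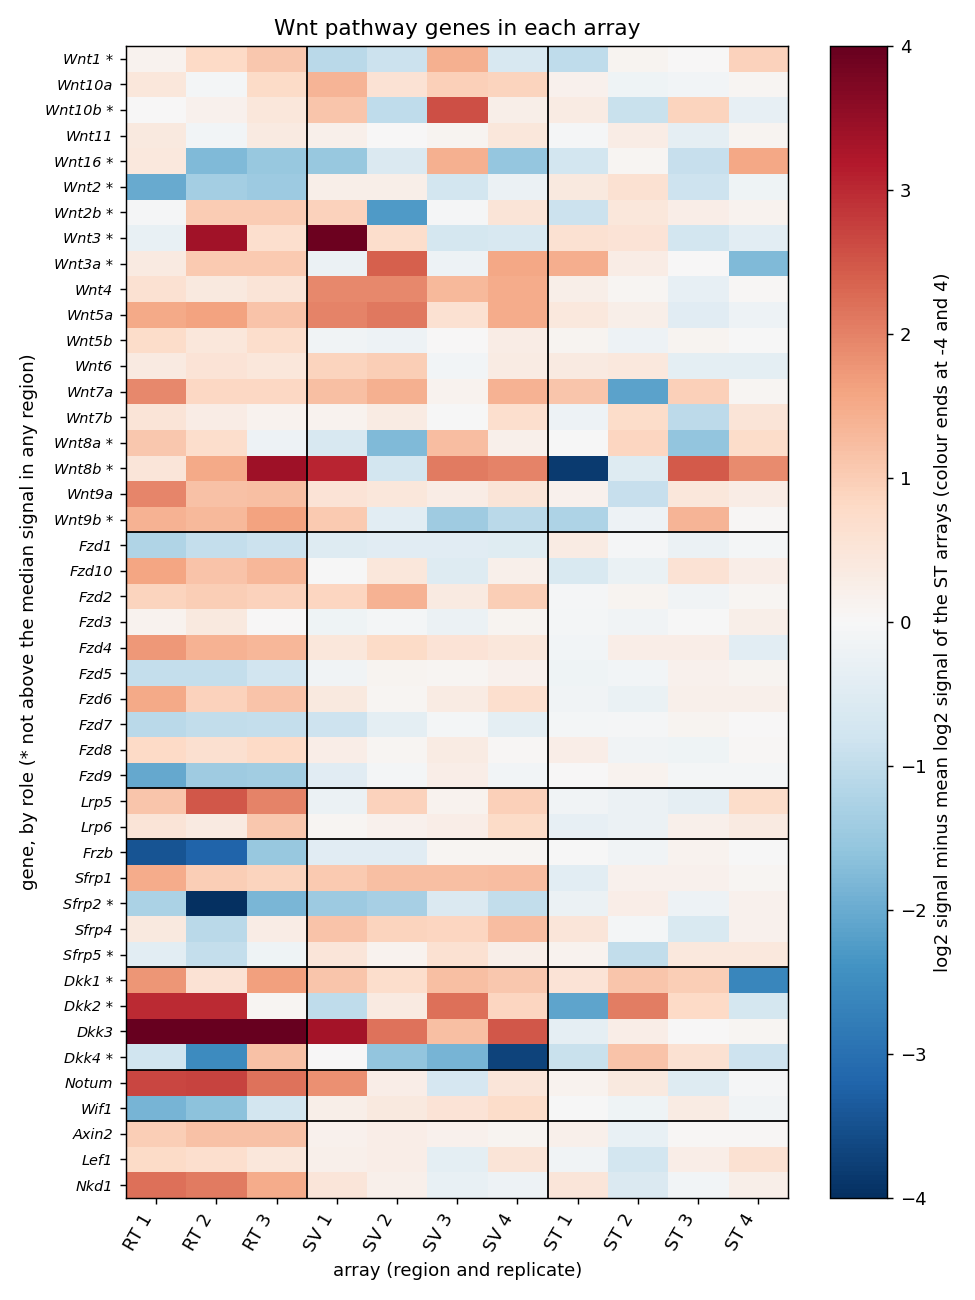
Log2 MAS5.0 signal of the 45 genes in each of the 11 arrays, shown as the difference from the mean of the 4 ST arrays of the same gene (red higher, blue lower), with lines between roles and regions. The 15 genes with an asterisk have no region with a mean above the median signal of 87.1, and their colours vary within a region. Dkk3 is red in all RT and SV arrays, Wnt4 is most red in SV, and Frzb, Wif1 and Fzd9 are bluest in the RT arrays.

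Among the 19 Wnt ligands, Wnt5a and Wnt9a were higher in RT than in ST (all genes: 12.5%) and Wnt2 was lower (all genes: 7.34%). Wnt4 and Wnt5a were higher in SV than in ST (all genes: 2.39%). Of the ligands, Wnt4 alone was called by limma in SV against RT, and there and against ST it was higher in SV. Its signals were 567, 481 and 526 in RT, 1414, 1403, 905 and 1029 in SV and 436, 387, 293 and 379.7 in ST. Every SV array was above every RT and ST array, and the RT arrays were above the ST arrays without overlap. The mean was 1188 ± 259.6 in SV against 374 ± 59.5 in ST (SD, n = 4 each), 3.15-fold, with a log2 fold change of 1.66 ± 0.17 (SE) and adjusted p = 0.000191. SV exceeded RT by 1.16 ± 0.19 on the log2 scale (adjusted p = 0.00138), and RT against ST was not called (0.50 ± 0.19, adjusted p = 0.0707). The other probe set of Wnt4 was called in the same 2 comparisons (adjusted p = 0.000627 and 0.00985).

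Wnt5a, a ligand best known for signals without beta-catenin, was higher than ST in both proximal regions. Signals were 743, 785 and 577 in RT, 1035, 1109, 398 and 718 in SV and 344, 308, 190.2 and 224 in ST. RT and SV arrays lay above all ST arrays and overlapped each other. The log2 fold change was 1.42 ± 0.32 in RT (adjusted p = 0.00456) and 1.55 ± 0.29 in SV (adjusted p = 0.0145), and SV differed from RT by 0.12, with a 95% interval from -0.56 to 0.81. The call in SV was lost without SV array 1 (1.40) or 2 (1.36). Of the 3 other Wnt5a probe sets, 1 was called in both comparisons (1.54 in RT and 1.46 in SV), with SV array 3 within the range of ST, and 2 in neither (1.38 and 1.37, then 0.47 and -0.16).

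SV array 3 was the lowest of its region for Wnt4 and Wnt5a, and it had the lowest summed signal of SV for 8 of 11 marker lists: rete testis, efferent duct, Leydig cell, macrophage, blood and lymphatic endothelium, fibroblast and mesothelium. It had the highest of SV for the Sertoli and germ cell lists. The 5 Leydig cell markers, for example, summed to 68173, 64409, 28088 and 53823. In ST these sums were 47708, 39552, 21869 and 31900, with array 3 again lowest for both ligands. None of the 5 markers was called between the regions by limma or by the methods' t-test, and 2 had higher values in SV than in ST at an unadjusted p under 0.05. The part of Leydig cells or of any other of these cell types in the ligand signals was not tested.

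Wnt6, the uncalled ligand with the highest mean signal, had 1583, 1806 and 1692 in RT, 2288, 2442, 1149 and 1561 in SV and 1612, 1653, 946 and 949 in ST. The regions overlapped, and the log2 difference from ST was 0.44 ± 0.27 in RT and 0.52 ± 0.25 in SV (adjusted p = 0.275 and 0.403). Wnt9a and Wnt7b are ligands that the study named from these same arrays, so their values are no independent evidence. Wnt9a signals were 154, 89.2 and 90.9 in RT, 58.1, 55.0, 48.8 and 56.5 in SV and 45.1, 21.1, 54.2 and 48.8 in ST. RT did not overlap with either region, at 1.43 ± 0.39 above ST (adjusted p = 0.0156), a call lost without RT array 1 (1.18), and its other, dimmer probe set had -0.18 in RT against ST. Wnt7b signals were 180.4, 157 and 139 in RT, 138, 159.8, 125 and 201 in SV and 109, 212, 61.2 and 179.9 in ST. The regions overlapped and the difference of 0.32 ± 0.37 in RT against ST was not called (adjusted p = 0.601), but a dimmer Wnt7b probe set, with a mean of 35.7 in RT against 7.72 in SV and 8.36 in ST, was called higher in RT (2.13, adjusted p = 0.0209).

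Wnt2 was called lower in RT than in ST (-1.61 ± 0.47, adjusted p = 0.0216) at signals that stayed below the median in all regions, with a mean of 17.4 ± 4.06 in RT against 49.6 ± 14.5 in SV and 55.9 ± 22.4 in ST. The call was lost without RT array 1 (-1.40), ST array 1 (-1.48) or ST array 2 (-1.41). With the replicate number as a block Wnt2 in SV was also called above RT (1.53, adjusted p = 0.0317), against adjusted p = 0.0512 without it. The remaining 13 ligands were not called by limma in any comparison, and 9 of them had no region with a mean above the median signal. Among these is Wnt3a, the ligand most often used to switch on beta-catenin signalling in culture, at means of 23.9 ± 5.87, 32.7 ± 27.4 and 17.5 ± 13.8 in RT, SV and ST, which was named after its values were seen. By the methods' t-test Wnt9b, also named after its values were seen, was called lower in SV than in RT (-1.90 ± 0.73 by limma, adjusted p = 0.106).

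**Figure D2:**
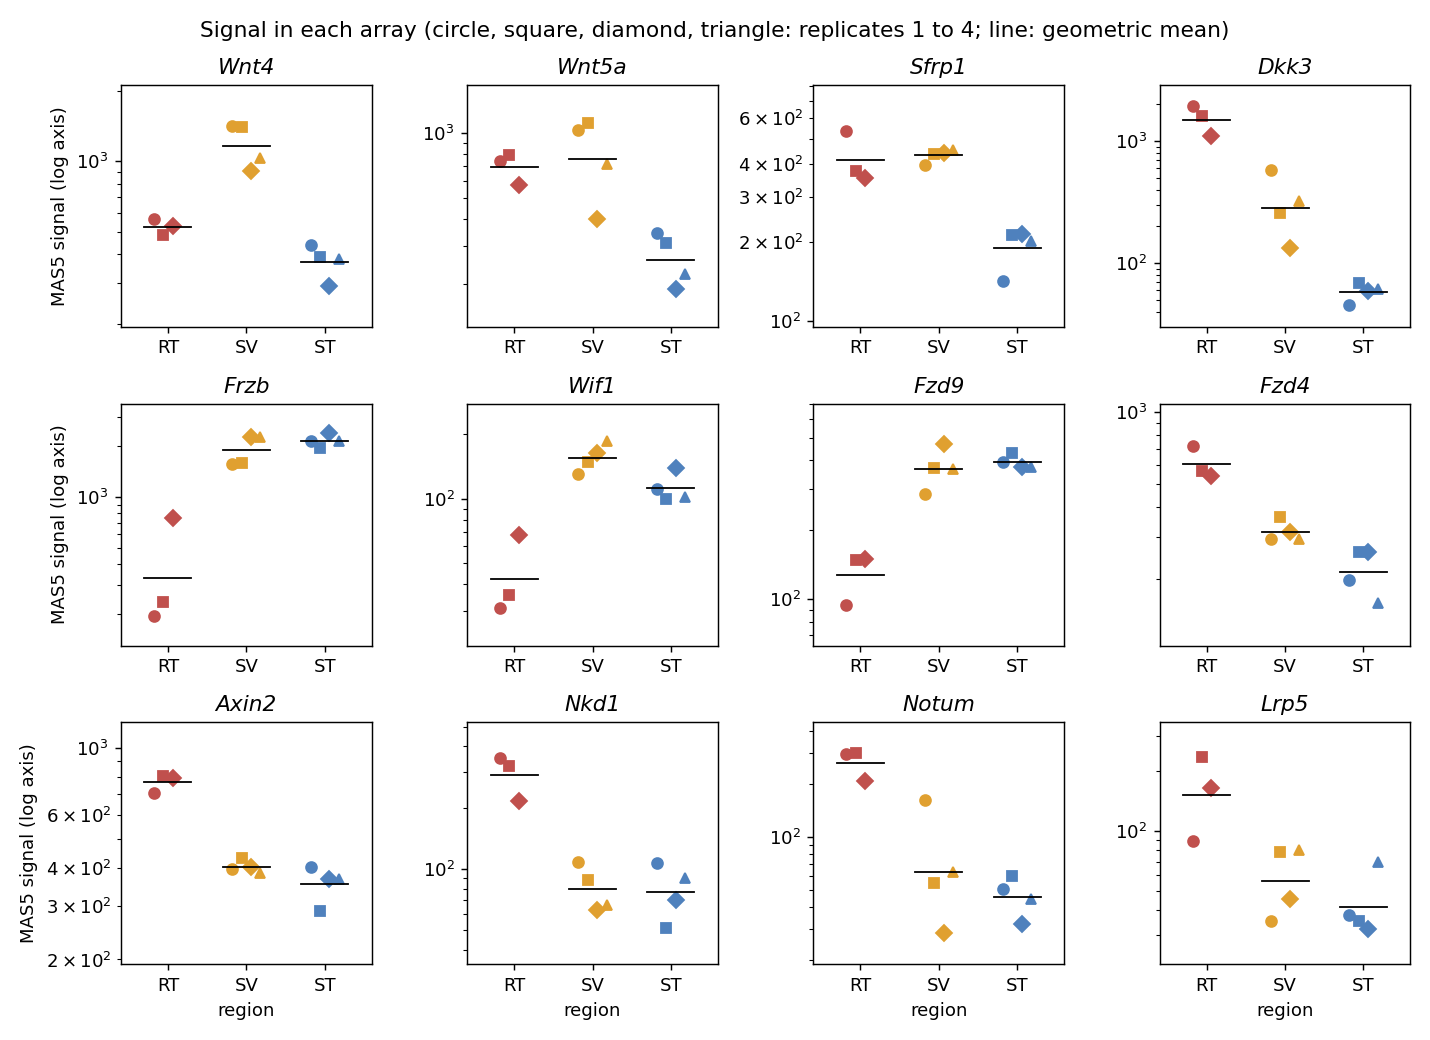
MAS5.0 signal (log axis) of 12 called genes in each array, with 3 RT, 4 SV and 4 ST arrays, the replicate number as the symbol and the geometric mean of each region as a line. Wnt4 is highest in SV, Wnt5a and Sfrp1 are higher in RT and SV than in ST, Dkk3 falls from RT over SV to ST, and Frzb, Wif1 and Fzd9 are low in RT.

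Of the 10 Frizzled receptors, Fzd4, Fzd6 and Fzd10 were higher in RT than in ST (all genes: 12.5%), and Fzd1 and Fzd9 were lower (all genes: 7.34%). None was called in SV against ST by limma or by the methods' t-test, while an unadjusted p under 0.05 was reached by 3 with higher values (Fzd2, Fzd4 and Fzd6) and 2 with lower (Fzd1 and Fzd7). Fzd4, which is also the receptor of norrin in blood vessels, had 719.8, 566 and 541 in RT, 295, 363, 316 and 296 in SV and 199.6, 259, 261 and 159 in ST. The 3 regions did not overlap, with RT above SV and SV above ST. RT exceeded ST by 1.49 ± 0.20 on the log2 scale (adjusted p = 0.000115), and SV by 0.56 ± 0.19 (adjusted p = 0.174, not called).

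Fzd6, a receptor of the planar polarity of epithelia, had 2114, 1426 and 1652 in RT, 984, 780.5, 939 and 1188 in SV and 680.3, 617, 849.9 and 865 in ST. RT lay above the other regions without overlap, at 1.20 ± 0.18 above ST (adjusted p = 0.000314), and at 0.77 after median centring, when it was not called. Fzd10 had 231, 171 and 195 in RT, 77.4, 106, 54.7 and 88.8 in SV and 51.4, 65.4, 116 and 94.0 in ST. RT was above both, by 1.35 ± 0.33 over ST (adjusted p = 0.00888) and with SV lower than RT (-1.31 ± 0.33, adjusted p = 0.0186), and both calls were lost without RT array 1 (1.23 and -1.201). The call against ST was also lost after quantile normalization (0.97) and median centring (0.92).

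Fzd9 was the Frizzled gene with the largest decrease in RT. Its signals were 94.6, 147 and 149 in RT, 284, 369.8, 468 and 366 in SV and 394, 431, 374 and 372 in ST. All RT arrays were below all others, while SV and ST overlapped. Against ST, RT had a log2 fold change of -1.62 ± 0.21 (adjusted p = 8.92e-05) and against RT, SV had 1.52 ± 0.21 (adjusted p = 0.00055), with -0.10 in SV against ST (95% interval from -0.52 to 0.33). Fzd1 had 994, 1182 and 1263 in RT, 1589.6, 1661, 1679.8 and 1619 in SV and 2892, 2234, 1943 and 2173 in ST. The 3 regions did not overlap and rose from RT over SV to ST, at -1.003 ± 0.14 in RT against ST (adjusted p = 0.000172), close to the fold threshold, so that the call was lost without RT array 1 (-0.90) or ST array 1 (-0.89). On other probe sets of these called receptors, Fzd4 was called higher in RT than in ST on 1 (1.05) and not on another (1.94, adjusted p = 0.3), and the rest were not called, with 0.94 and 0.62 for Fzd6, -2.55 for Fzd10 and -0.65 for Fzd1.

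Fzd2, Fzd5, Fzd7 and Fzd8, named after their values were seen, passed the adjusted p in RT against ST below the fold threshold. Fzd2 was higher by 0.94 ± 0.22 (adjusted p = 0.00608) and was also higher in SV than in ST by 0.90 ± 0.20 (adjusted p = 0.0357), while its 2 other probe sets had 0.52 and 0.24 in RT against ST (adjusted p = 0.345 and 0.54). Fzd8 was higher by 0.75 ± 0.19 (adjusted p = 0.00889), and 0.57 on its dimmer probe set (adjusted p = 0.272), which was called lower in SV than in RT. Fzd5 was at -0.89 ± 0.14 (adjusted p = 0.000487), and Fzd7, with RT signals of 724, 772 and 788 against 1431, 1462, 1624 and 1542 in ST, at -0.99 ± 0.16 (adjusted p = 0.00037). Fzd5 crossed the fold threshold on its dimmer probe set, at -1.01 in RT against ST (adjusted p = 0.0443). After quantile normalization and after median centring, Fzd5 (-1.09 and -1.313) and Fzd7 (-1.025 and -1.415) were called lower in RT than in ST. Fzd8 no longer passed the adjusted p under either scaling (0.134 and 0.344), and Fzd2 passed it after quantile normalization (0.0314) but not after median centring (0.123).

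The result for Fzd3, the uncalled Frizzled gene with the highest mean signal, depended on the probe set. The probe set used had 1736, 2056 and 1582 in RT, 1388, 1482, 1329.9 and 1688 in SV and 1479.5, 1411, 1547 and 1846 in ST, with overlapping regions and 0.19 ± 0.14 in RT against ST (adjusted p = 0.385). Of its 5 other probe sets, 3 were called higher in RT than in ST, at 1.42, 1.43 and 1.30, and lower in SV than in RT, at -1.21, -1.28 and -1.32. The remaining 2 had 0.89 and 2.25 in RT against ST and were not called (adjusted p = 0.211 and 0.097). Whether the probe sets read different transcripts was not tested.

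**Figure D3:**
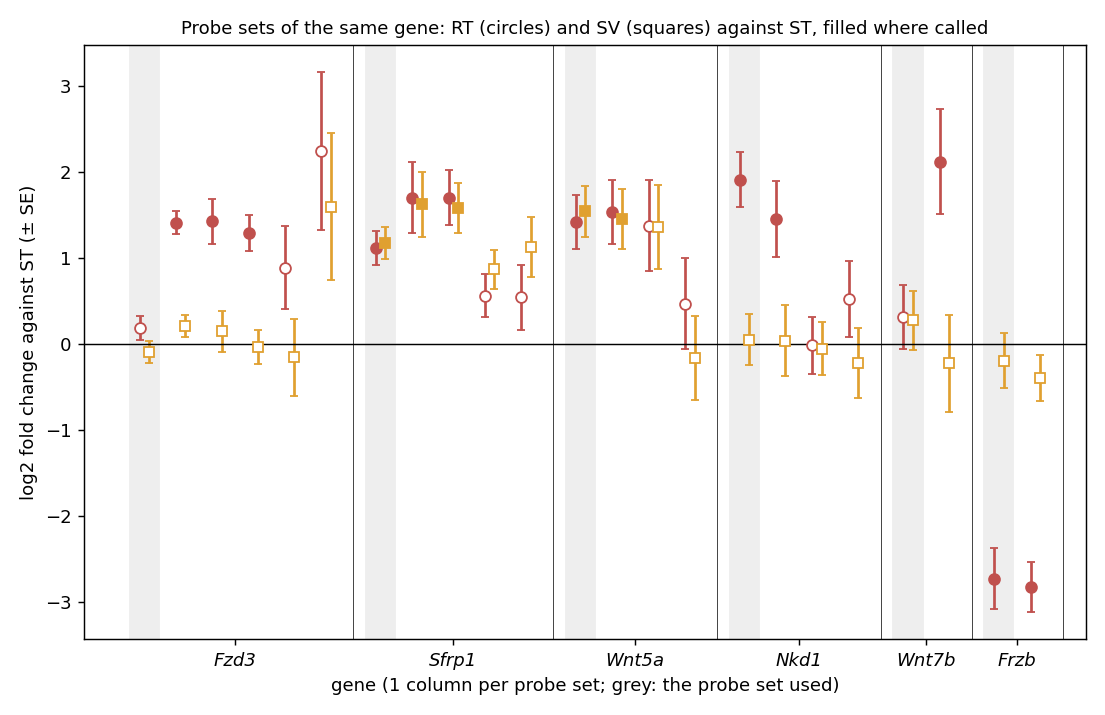
Log2 fold change against ST (± SE) of every probe set of 6 genes, RT as circles and SV as squares, filled where called, with the probe set used for the gene on grey. For Fzd3 the probe set used is near 0 while 3 others are called higher in RT, whereas the 2 probe sets of Frzb lie together at -2.73 and -2.82 in RT.

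Both Lrp co-receptors had higher values in RT. Lrp5 signals were 89.3, 235 and 165 in RT, 35.2, 78.5, 45.6 and 80.4 in SV and 37.8, 35.4, 32.2 and 69.9 in ST. The RT arrays were above all SV and ST arrays but spread from 89.3 to 235. Lrp5 was higher in RT than in ST by 1.86 ± 0.45 (adjusted p = 0.0072), a call lost without RT array 2 (1.55), and lower in SV than in RT (-1.42 ± 0.45) at adjusted p = 0.04997. That second call was lost without any of 8 of the 11 arrays, including ST arrays, which enter only through the shared spread. Lrp6 signals were 1262, 1126 and 1848 in RT and 704, 745, 1015 and 1116 in ST, which did not overlap, at 0.65 ± 0.22 (adjusted p = 0.0458), under the fold threshold, and SV lay between them at 1111 ± 250.2 (SD, n = 4). For Lrp6 in RT against ST, quantile normalization gave 0.65 (adjusted p = 0.042) and median centring 0.23 (adjusted p = 0.398). On its other probe set RT and ST overlapped, at 0.91 ± 0.34 (adjusted p = 0.0659).

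The 11 antagonists moved in both directions. In RT against ST, Dkk3, Notum and Sfrp1 were higher (all genes: 12.5%) and Frzb, Sfrp2 and Wif1 were lower (all genes: 7.34%). In SV against ST limma called Dkk3 and Sfrp1, both higher (all genes: 2.39%). There the methods' t-test added Sfrp4 as higher and Sfrp2 as lower. Sfrp1 binds Wnts and Frizzled receptors outside the cell, and the study named it from these same arrays, so its values are no independent evidence. The study counted it among the probes higher than ST in SV and not in RT. Signals were 537, 378 and 352 in RT, 396, 439, 443 and 453 in SV and 142, 213, 215 and 203 in ST. RT and SV lay above all ST arrays and overlapped each other. The log2 fold change was 1.12 ± 0.20 in RT (adjusted p = 0.000875) and 1.18 ± 0.18 in SV (adjusted p = 0.00346), and SV differed from RT by 0.06 (95% interval from -0.37 to 0.49). Of the 5 Sfrp1 probe sets, 3 were called in both comparisons and 2 in neither. Those 2 had 1.13 and 0.87 in SV against ST, without overlap, and 0.54 and 0.56 in RT against ST, with overlap. The RT call of the probe set used was lost without RT array 1 (0.94) or ST array 1 (0.98).

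Frzb, also known as an Sfrp, was the antagonist with the largest decrease in RT among those with signals above the median. Signals were 196, 237 and 755 in RT, 1568, 1595, 2264 and 2286 in SV and 2162, 1969, 2399 and 2145 in ST. Every RT array was below every SV and ST array, RT array 3 was the highest of its region, and SV and ST overlapped. The mean was 396 ± 311 in RT (SD, n = 3) against 2169 ± 177 in ST (SD, n = 4). The log2 means gave a 6.61-fold lower level in RT, -2.73 ± 0.35 on the log2 scale (adjusted p = 7.94e-05). SV exceeded RT by 2.54 ± 0.35 (adjusted p = 0.000532), and its other probe set gave -2.82 and 2.43. SV against ST was -0.19 (95% interval from -0.89 to 0.51).

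Wif1, which holds Wnts in the extracellular space, went the same way. Signals were 31.1, 35.7 and 67.6 in RT, 131, 148, 163 and 185 in SV and 111, 99.3, 139 and 102 in ST. RT was below the other regions in all arrays, at -1.41 ± 0.31 against ST (adjusted p = 0.00404), and SV exceeded RT by 1.88 ± 0.31 (adjusted p = 0.00144). RT array 3 was the highest RT array for Frzb, Wif1 and Fzd9. It also had the highest summed signal in RT for 6 of the 11 marker lists, among them Sertoli cells (45803 against 35653 and 34597), peritubular myoid cells (8046 against 4418 and 4854) and germ cells (3826 against 3328 and 3387), and the lowest for 4, among them rete epithelium. Of 8 myoid markers, 3 were lower in RT than in ST (all genes: 7.34%) and 1 higher (all genes: 12.5%), with sums of 4418–8046 in RT against 9561–15994 in ST. Of 8 germ cell markers, 5 were lower and 1 higher, against the same shares of all genes. The higher one was Gfra1, named after its values were seen. The germ cell sums overlapped, at 3328–3826 in RT and 2796–6489 in ST, so they do not follow the 5 lower markers. The median level of the 8 germ cell markers on the log2 scale, taken from the ST mean, was -4.35 to -2.68 in the RT arrays. The part of Sertoli, myoid or germ cell content in these differences was not tested.

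Sfrp4 was higher in SV than in RT. Signals were 206, 74.8 and 193 in RT, 348, 293, 283 and 369.8 in SV and 220.1, 151, 104 and 179 in ST. All SV arrays were above all RT and ST arrays, at 1.16 ± 0.34 over RT (adjusted p = 0.0386) and 1.03 ± 0.32 over ST (adjusted p = 0.134, not called, and adjusted p = 0.037 with the replicate number as a block). The call against RT was lost without any of 7 of the 11 arrays, with 0.69 without RT array 2, the RT array with the lowest signal. Sfrp2 was lower in RT than in ST (-2.96 ± 0.85, adjusted p = 0.0207) at signals below the median. It had 28.0, 1.20 and 19.0 in RT and 56.8, 81.2, 58.2 and 75.9 in ST. The methods' test, run here on log2 signal, did not call it, and that test was not run on the linear signals. Sfrp5 was not called in any comparison, at 41.5 ± 10.8, 74.9 ± 10.6 and 61.7 ± 22.7 in RT, SV and ST.

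Dkk3, a secreted Dickkopf protein that does not block the Lrp co-receptors the way Dkk1 does, had the largest increase of the 45 genes. Signals were 1922, 1591 and 1091 in RT, 576, 259, 134 and 323 in SV and 45.0, 69.3, 58.7 and 61.2 in ST. The 3 regions did not overlap and fell in this order. RT was 25.8-fold above ST (4.69 ± 0.38 on the log2 scale, adjusted p = 3.01e-06), SV was 4.91-fold above ST (2.29 ± 0.35, adjusted p = 0.00339) and SV was lower than RT (-2.40 ± 0.38, adjusted p = 0.00124). Its other probe set was called in the same 3 comparisons, at 4.47, 2.13 and -2.34. Within SV, Dkk3 was highest in array 1, then in 4, 2 and 3, and the summed rete marker signals of these arrays were 7778, 5764, 4503 and 3657, in the same order. The part of rete cells in the SV signal was not tested. The other 3 Dickkopf genes had no region above the median signal and were not called, with Dkk1 at 33.8 ± 12.9, 25.9 ± 3.64 and 18.1 ± 11.4 in RT, SV and ST.

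Notum was highest in RT. Signals were 294, 297 and 207 in RT, 161, 54.6, 28.4 and 63.5 in SV and 50.7, 60.2, 32.2 and 44.3 in ST. The RT arrays lay above all others, and SV array 1 lay above the other SV arrays and all ST arrays. RT exceeded ST by 2.52 ± 0.48 (adjusted p = 0.0015), SV was lower than RT (-2.06 ± 0.48, adjusted p = 0.0116), and SV against ST was 0.47 ± 0.44 (adjusted p = 0.756). The SV call against RT was lost without RT array 1 (-1.97) or RT array 2 (-1.97). SV array 1 was also the SV array with the highest summed rete marker signal.

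**Figure D4:**
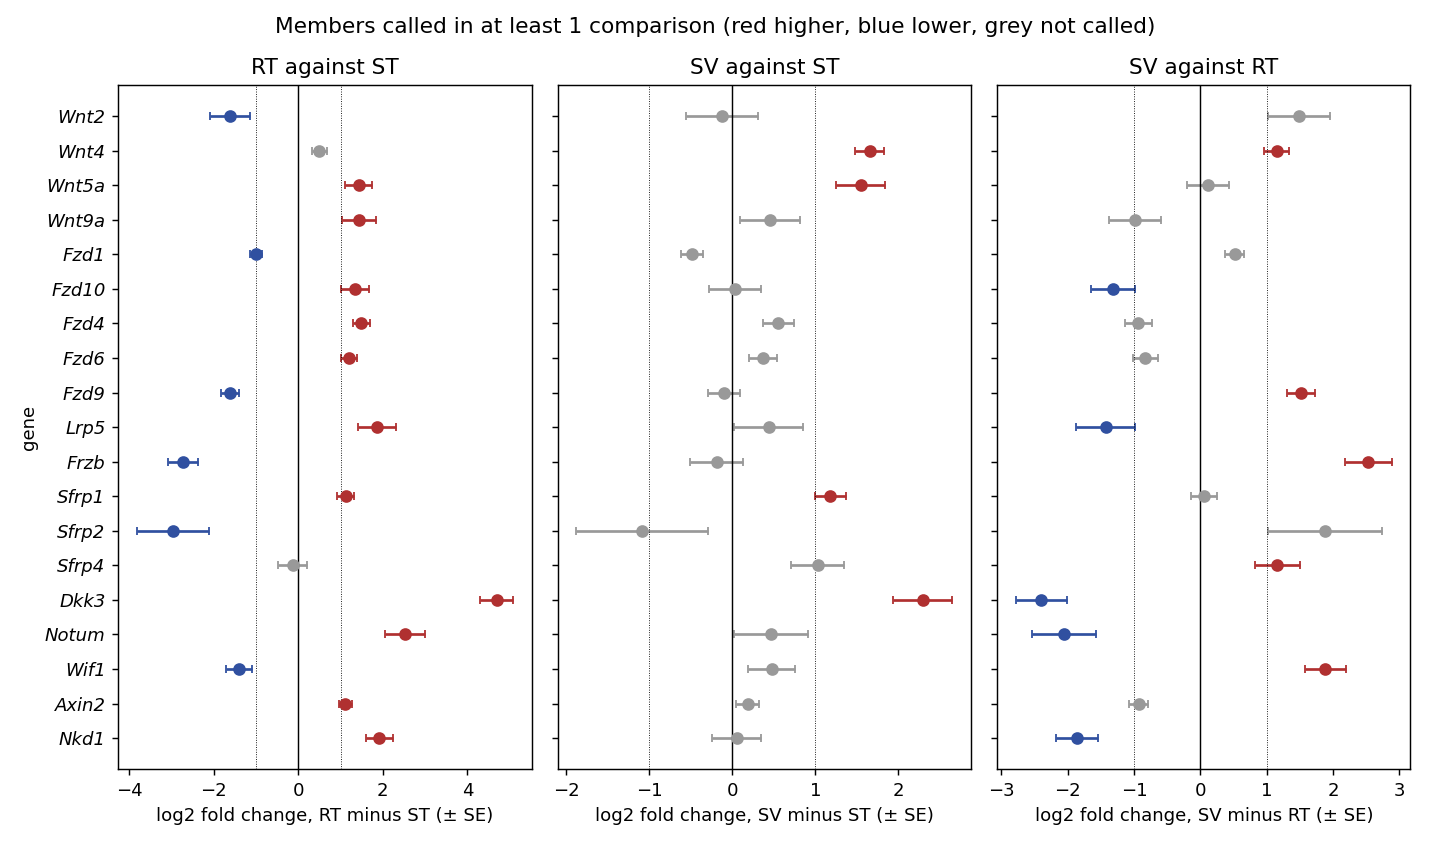
Log2 fold change (± SE) of the 19 genes called in at least 1 comparison, for RT against ST, SV against ST and SV against RT, in red where called higher, blue where called lower and grey where not called. Dotted lines mark 2-fold, and each panel has its own horizontal scale. Wnt4, Wnt5a, Sfrp1 and Dkk3 are the 4 genes called in SV against ST.

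The response genes Axin2 and Nkd1 were higher in RT than in ST (all genes: 12.5%), and neither was called in SV against ST. Axin2 is a scaffold of the complex that breaks down beta-catenin and is itself a widely used readout of the pathway. Its signals were 709, 807 and 795 in RT, 397, 431, 403 and 386 in SV and 405, 289, 369.6 and 368 in ST. RT lay above all other arrays, while SV and ST overlapped. RT exceeded ST by 1.11 ± 0.15 (adjusted p = 9.57e-05), though by 0.98 after quantile normalization and 0.69 after median centring, under the fold threshold. SV against ST was 0.18 (95% interval from -0.11 to 0.48), and SV against RT was -0.93 ± 0.15, past the adjusted p (0.00117) but under 2-fold. On the other, dimmer Axin2 probe set RT and ST overlapped, at 0.81 ± 0.52 in RT against ST (adjusted p = 0.304, not called).

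Nkd1, which binds Dishevelled and dampens the signal, had 349.6, 320.1 and 215 in RT, 108, 88.5, 62.9 and 66.6 in SV and 107, 51.0, 70.6 and 89.7 in ST. RT lay above every other array, and SV and ST overlapped. Against ST, RT had a log2 fold change of 1.91 ± 0.32 (adjusted p = 0.000601) and against RT, SV had -1.86 ± 0.32 (adjusted p = 0.00195), with 0.05 in SV against ST (95% interval from -0.59 to 0.69). Of the 3 other Nkd1 probe sets, 1 was called in both comparisons (1.45 and -1.41) and 2 were not. Lef1, the DNA-binding partner of beta-catenin, had 161, 152 and 131 in RT, 111, 116, 72.0 and 135 in SV and 85.7, 57.3, 115 and 146 in ST. Its regions overlapped, and 0.63 ± 0.33 in RT against ST was not called (adjusted p = 0.205).

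Upstream sequences are shown for Axin2 and Nkd1, the response genes called in RT, for Wnt4, the ligand called in SV against RT and against ST, and for Sp5, the target gene described next. Each is the 250 bases before the annotated start (RefSeq, GRCm38.p6, plus strand), 5′ to 3′, with capitals where CTTTGAA or CTTTGAT or CTTTGTA or CTTTGTT, the letters searched for Tcf and Lef factors, occur on either strand. No matches overlapped in these windows.
Axin2, chr11:108920099-108920348: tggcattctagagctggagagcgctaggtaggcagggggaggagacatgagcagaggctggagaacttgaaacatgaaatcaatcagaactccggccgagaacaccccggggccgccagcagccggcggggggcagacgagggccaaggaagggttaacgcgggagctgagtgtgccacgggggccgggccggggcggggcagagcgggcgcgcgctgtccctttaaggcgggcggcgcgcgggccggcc
Nkd1, chr8:88527383-88527632: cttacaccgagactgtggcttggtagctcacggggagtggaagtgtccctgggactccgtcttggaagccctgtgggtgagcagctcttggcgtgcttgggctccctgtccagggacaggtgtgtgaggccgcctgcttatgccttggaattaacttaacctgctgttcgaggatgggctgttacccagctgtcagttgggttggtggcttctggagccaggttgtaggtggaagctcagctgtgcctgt
Wnt4, chr4:137277385-137277634: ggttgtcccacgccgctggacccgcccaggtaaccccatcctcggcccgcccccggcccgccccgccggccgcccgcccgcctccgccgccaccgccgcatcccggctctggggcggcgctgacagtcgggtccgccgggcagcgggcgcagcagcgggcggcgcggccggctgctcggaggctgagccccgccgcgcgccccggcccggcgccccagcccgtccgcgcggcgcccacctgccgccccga
Sp5, chr2:70474673-70474922: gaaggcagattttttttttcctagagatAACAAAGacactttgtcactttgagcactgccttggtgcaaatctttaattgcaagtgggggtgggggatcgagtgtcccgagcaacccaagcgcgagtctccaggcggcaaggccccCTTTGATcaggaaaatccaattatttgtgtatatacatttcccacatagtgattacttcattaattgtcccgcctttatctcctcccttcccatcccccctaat
Axin2, Nkd1 and Wnt4 held none of these letters in this window, and the Wnt4 window was 85.2% G or C. Sp5 held AACAAAG, the reverse complement of CTTTGTT, 222 to 216 bases before the start and CTTTGAT 104 to 98 bases before it. The letters occurred in 3 of the 10 windows of the common target genes, those of Mmp7, Sp5 and Tnfrsf19. Sp5 is not one of the 45 genes, and for the 30 of these with an entry 5 of the 36 windows held the letters (13.9%), against 14.8% of all 32851 windows of this length. A match is a description of the letters, not a binding site.

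Beyond the 45 genes, 6 lists of other Wnt pathway genes were read from the same fit, with 2 listed genes, Aes and Kremen2, not analysed here. Of 14 common target genes, 9 were higher in RT than in ST (all genes: 12.5%) and none lower by limma, while 1, Ascl2, had a lower value (-1.22) at an unadjusted p under 0.05 and by the methods' t-test, and was named after its values were seen. The median was 1.79, and the largest changes were Mmp7, a matrix protease (6.03 ± 0.73), Sp5, a transcription factor gene (5.05 ± 0.44), the ubiquitin ligase gene Rnf43 (3.87 ± 0.82) and Cd44 (3.85 ± 0.27). In SV against ST, 3 of the 14 were higher by limma (all genes: 2.39%): Sp5 (3.15 ± 0.41), the cell cycle gene Ccnd1 (1.73 ± 0.28) and the adhesion receptor gene Cd44 (1.64 ± 0.25), and 7 were lower in SV than in RT (all genes: 6.41%).

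Sp5 signals were 393, 445 and 326 in RT, 164, 81.9, 67.8 and 125 in SV and 8.09, 13.4, 22.5 and 7.58 in ST. The regions did not overlap and fell in this order, and within SV the order of arrays 1, 4, 2 and 3 was that of the summed rete marker signal. Ccnd1 signals were 3929.9, 3683 and 3242 in RT, 1547, 1161, 498 and 1335 in SV and 291, 303, 288 and 392 in ST, again without overlap. Many of these target genes also answer to other pathways, and the part of rete cells in their signals was not tested.

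**Figure D5:**
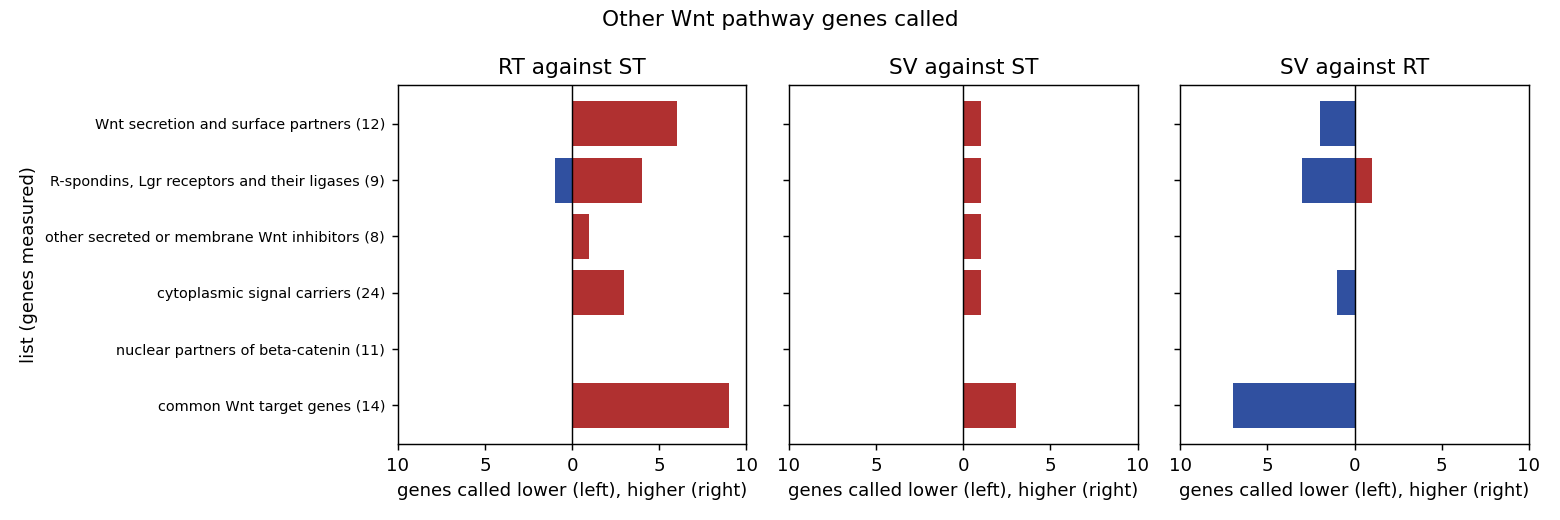
Number of genes called by limma higher (right, red) and lower (left, blue) in 6 lists of other Wnt pathway genes, with the number measured in brackets, for the 3 comparisons. The common target genes hold 9 higher in RT against ST and 3 in SV against ST, and the nuclear partners of beta-catenin hold no call by limma.

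Genes for secretion and the cell surface had 6 of 12 higher in RT (all genes: 12.5%) and 1 in SV (all genes: 2.39%) against ST. That gene was Wls, which carries Wnts out of the cell, with 3059.6, 2821 and 2928 in RT, 2250.2, 2021, 1099 and 2602 in SV and 930.2, 1038, 805 and 959 in ST. All RT and SV arrays lay above all ST arrays, at 1.66 ± 0.23 in RT (adjusted p = 0.000142) and 1.03 ± 0.21 in SV (adjusted p = 0.0229). The others were the receptor genes Ptk7 (3.48 ± 0.57), Ror1 (1.23 ± 0.19) and Ror2, the glypican gene Gpc3 and Ndp, which encodes norrin, a ligand of Fzd4 (2.93 ± 0.58 in RT against ST, adjusted p = 0.00205).

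R-spondins keep Frizzled receptors at the cell surface, and 4 of 9 genes of their list were higher in RT than in ST (all genes: 12.5%) and 1 was lower (all genes: 7.34%) by limma. Rspo1 signals were 3873, 3653 and 2195 in RT, 1103, 648, 275 and 654 in SV and 124, 76.1, 66.5 and 74.3 in ST. The regions did not overlap, at 5.25 ± 0.38 in RT and 2.86 ± 0.35 in SV against ST (adjusted p = 1.21e-06 and 0.000668). Rspo3 (4.32 ± 0.80), the receptor gene Lgr5 (2.56 ± 0.55) and Rnf43 were also higher in RT, and Lgr5 and Rnf43 are in the target list too. Rspo2 was lower in RT than in ST (-1.89 ± 0.57, adjusted p = 0.0267) and SV exceeded RT (2.26 ± 0.57, adjusted p = 0.0182). In SV against RT limma thus called 1 of the 9 higher (all genes: 4.39%) and 3, Rspo1, Lgr5 and Rnf43, lower (all genes: 6.41%). The methods' t-test also called Rspo4, named after its values were seen, lower in RT and in SV than in ST. By that test Rspo3 was higher in SV than in ST and lower in SV than in RT.

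Of 24 cytoplasmic signal carriers, 3 were higher in RT than in ST, the same share as over all genes (12.5%): Cxxc5 (2.58 ± 0.18), Csnk1e (1.29 ± 0.23) and Nkd2 (1.21 ± 0.31). Nkd2 is in the target list too. Cxxc5 was also the 1 carrier called higher in SV than in ST (1.24 ± 0.17, all genes: 2.39%). No carrier was called lower in RT than in ST by limma. At an unadjusted p under 0.05, 7 carriers had higher values in RT and 5 had lower. Among the lower were Axin1 (-0.87 ± 0.14), Apc (-0.50 ± 0.17) and Apc2 (-1.63 ± 0.64), named after their values were seen. Ctnnb1, which encodes beta-catenin, had 15677 ± 1252 in RT, 15462 ± 1026 in SV and 15885 ± 2082 in ST, with a difference of -0.01 in RT (95% interval from -0.31 to 0.28) and -0.03 in SV (95% interval from -0.30 to 0.24). Of 11 nuclear partners of beta-catenin none was called by limma in any comparison. The methods' t-test called 1, Pygo1, lower in SV than in RT (-1.07 ± 0.41 by limma, adjusted p = 0.109). At an unadjusted p under 0.05, 2 had higher values in RT than in ST (Tcf7l1 0.70 and Tcf7l2 0.74) and 2 had lower (Tle3 -0.36 and Tle4 -0.46). These 5 genes were named after their values were seen. Of 8 other inhibitors, 1, Igfbp4, was called higher than in ST. It was at 1.89 ± 0.15 in RT (all genes: 12.5%) and 1.17 ± 0.14 in SV (all genes: 2.39%).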

How the data were processed

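Total RNA of 11 samples (RT 3, SV 4, ST 4) was hybridized to Affymetrix Mouse Genome 430 2.0 arrays. Intensity values were summarized by the authors to MAS5.0 signals per array and deposited on a linear scale for 45101 probe sets, of which 34958 carry 1 gene symbol in the array annotation, 932 several and 9211 none. The median signal was 65.8–110.4 per array. The number of arrays limits the precision, and p-values measure the spread between pools.

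Log2 signals without filter or constant were fitted by limma 3.58.1 in R 4.3.3 (lmFit, eBayes with trend) over all arrays. Contrasts were adjusted by Benjamini-Hochberg over 45101 probe sets, the call needed over 2-fold with an adjusted p under 0.05, and there was no replicate block, as in the study. Counts over all genes use 1 probe set per gene. The share of all genes at an unadjusted p under 0.05 was not counted, so gene counts at that cut stand without a background.

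The genes, lists and tests were chosen with earlier results of these data known. Every gene called in a comparison is named, with Sfrp1, Wnt9a, Wnt7b, Lrp5, Lrp6, Axin2 and Lef1 whatever their call, the uncalled gene with the highest mean signal of each role, and up to 4 called genes per list and comparison. Other names were added with their values known, as stated there.

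Alternatives were the t-test of the study's methods (unadjusted, then adjusted), a fit of the 2 groups compared, quantile normalization, median centring, a floor of 32, log2(signal + 32), dim probe sets left out, no trend, a replicate block, replicates 1 and 2 against 3 and 4 as a block and each such set alone, no fold threshold, any probe set of the gene, and each array left out. The t-test was run on log2 signal. Over probe sets brighter than the median, arrays of the same number in different regions correlated at 0.277–0.670 after region means were removed. Other numbers of the same set correlated at 0.168–0.477 and other sets at -0.580 to -0.276. The first 2 ranges overlap. The number was used as a pairing only in the replicate block, so the main p-values are unpaired. The labels number the samples without saying what a number shares. All 45 genes matched the RefSeq table, whose promoter windows were read for letters on both strands with Python 3.11.15. Other experiments of the study were not analysed here.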

Additional observations from a re-analysis of the deposited data

Results flagged for a closer look

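Of 90 groups (45 genes in SV or ST, 4 arrays each), 3 had 1 array far from the others by Dixon's test at the 95% level, and chance gives about 1 in 20. Wnt7a had a signal of 41.6 in SV replicate 3 against 87.9, 102 and 99.9 in the other SV arrays. Sfrp1 had 142 in ST replicate 1 against 213, 215 and 203, and its call in RT against ST was lost without that array (0.98). Dkk1 had 2.05 in ST replicate 4 against 18.3, 27.4 and 24.7, all below the median signal.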

How the results depend on the processing

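Of 770 comparisons of the 31 called differences with an alternative, 666 kept direction and call, 104 kept the direction and lost the call, and none changed direction. Frzb and Dkk3 in RT against ST kept their call under all alternatives run, and 20 of the 31 did so with each array left out. With replicates 3 and 4 alone, where RT has 1 array that is assumed to vary like the other regions, 1 gene was higher and 1 lower in RT against ST, and 0 were called in the other comparisons.

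In RT against ST, the 11 higher genes became 7 after quantile normalization and 6 after median centring (8–11 with 1 array left out), and the 6 lower became 3 with log2(signal + 32) (4–7). In SV against ST, the 4 higher became 0 by the methods' t-test with adjustment (3–5), and the 0 lower became 1 by that test without adjustment (0 in all left-out fits). In SV against RT, the 5 higher became 3 by the adjusted t-test and 8 with no fold threshold (4–6). The 5 lower became 1, 3 after median centring, 3 with replicates 1 and 2 alone, 9 with no fold threshold and 8 with any probe set of the gene (3–5, with 3 without RT replicate 1 or 2). The replicate block gave 11 and 6 in RT against ST, 5 and 0 in SV against ST and 6 and 5 in SV against RT, adding Sfrp4 in SV against ST and Wnt2 in SV against RT and losing no call. The cause of these shifts was not tested. Signals near the background limit the 15 genes below the median, such as Wnt2, at -1.61 in RT against ST and -0.73 with a floor of 32.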
